A study of Mus musculus with 6 samples.

Results

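Differentiated cultures of mouse induced pluripotent stem (iPS) cells were set against RNA labelled as neonatal and adult cardiomyocytes, to describe which cell lineages are high on one side and low on the other. The samples were chosen by their titles and number 5 of the 6 in the series, 3 cultures and 2 heart libraries, each measured once on an Affymetrix Mouse Gene 2.0 ST array. iPS cells are adult cells returned by reprogramming to a state from which any tissue can be formed. All 3 cultures passed 5 days in suspension as embryoid bodies, which are clumps of differentiating cells, and were then plated on gelatin. One received 1% DMSO, a solvent that promotes differentiation. One received 100 ng/ml NRG-1 (neuregulin 1, a ligand of ERBB receptors) and one received both, and all 3 were labelled day 7. The heart libraries came from hearts of neonatal and of adult mice, and the labels used here do not describe how cells were taken from them. Every sample carries the strain label DBA/2J and the label female, and the iPS cells had been kept on feeder cells with LIF before differentiation. The remaining sample, undifferentiated iPS cells, is quoted beside some results as a level and enters no comparison.

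The heart holds several cell types. Cardiomyocytes contract through sarcomeres of actin and myosin. Fibroblasts lay down collagen and other matrix, smooth muscle cells and pericytes wrap vessels, and endothelial cells and macrophages make up much of the rest. Embryoid bodies form derivatives of all germ layers, and visceral endoderm, an early epithelium that resembles the yolk sac and secretes plasma proteins, usually appears on their surface. Epithelial cells are held together by E-cadherin, tight junctions and keratin filaments, whereas mesenchymal cells such as fibroblasts use other cadherins and a fibrillar matrix.

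Values are on the log2 scale after RMA, the authors' normalization, and per-library values are given for the DMSO, NRG-1 and combined cultures in that order, then for the neonatal and adult heart libraries. A gene's value is the mean over its probe sets, and levels of different genes cannot be ranked, because probes differ in brightness. Each condition has 1 library, and the libraries of a side are different conditions rather than replicates, so nothing was tested and no p-value is given. The filter kept 14099 genes for which at least 1 of the 5 libraries reached the median of the whole table (5.21), and a gene below it in all 5 is called dim. Over the genes kept, the cultures correlated with each other at r between 0.972 and 0.991, and the heart libraries with each other at 0.952. Across the sides r was 0.803 to 0.831. These correlations are across genes and describe the arrays only. Y-linked genes went against the label female in the heart libraries. Eif2s3y had 3.32, 2.88 and 3.20 in the cultures, against 6.20 and 8.15 in the heart libraries, and Kdm5d and Uty showed the same separation. Xist, which is transcribed from the inactive X chromosome, had 6.49, 6.91 and 6.87 in the cultures and 8.78 and 3.39 in the neonatal and adult libraries, so the neonatal library held both signals. Which results follow the sex of the animals was not tested.

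A gene was counted for a side when every library of that side lay at least 2-fold above every library of the other, so the count rests on the closest pair of libraries. This smallest gap was met by 656 of 14099 genes (4.65%) higher in the cultures and by 666 (4.72%) higher in the heart libraries. At 4-fold the counts were 209 (1.48%) for the cultures and 182 (1.29%) for the heart libraries. The difference of side means alone was at least 2-fold for 1131 genes higher in the cultures and 1236 higher in the heart libraries. Within the sides, 343 genes spanned 2-fold or more among the cultures and 729 between the heart libraries. Of the 1322 counted genes, 85 spanned 2-fold among the cultures and 121 between the heart libraries. Most counted genes thus varied by less than 2-fold within a side, but both shares were larger than those over the 14099 genes. When the same gene was read by 2 probe sets, the SD per estimate of the difference was 0.538 over 736 genes. It is the SD of their disagreement divided by the square root of 2. Both probe sets read the same arrays, so it describes probe sets and not error between libraries.

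**Figure D1:**
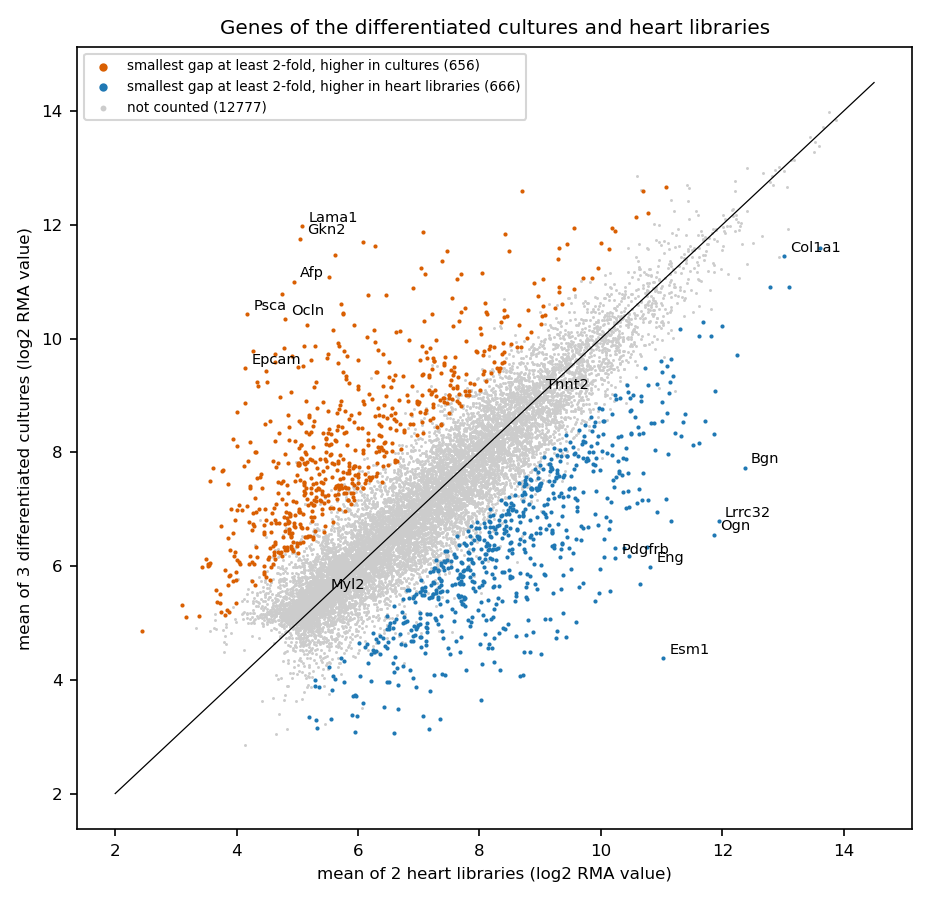
Mean log2 RMA value of the 3 cultures (vertical axis) against that of the 2 heart libraries (horizontal axis) for the 14099 genes that passed the filter, with counted genes in colour and equal means on the line. The 656 genes counted for the cultures lie above the line and the 666 counted for the heart libraries below it, and Tnnt2 and Myl2 lie near it.

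Genes of epithelia were high in the cultures and low in the heart libraries. Of 30 measured genes for epithelial junctions and polarity, 20 were higher in the cultures and 0 in the heart libraries, against a background of 4.65% and 4.72%. The background is over genes that passed the filter, whereas the total of each list here and below includes its dim members. The median difference (cultures minus heart libraries, log2) over all 30 was 2.67, against 0.00 over all genes. In such bulk samples, fewer cells of a type and less RNA per cell cannot be told apart. Cdh1 (E-cadherin, the adhesion molecule of epithelia) had 9.94, 9.95 and 9.73 in the cultures, against 5.40 and 4.82 in the heart libraries. All 3 cultures were alike and both heart libraries low, the closest pair being 20.2-fold apart. The difference of means was 4.77 over its 2 probe sets and 6.07 with the brighter one. Epcam, another epithelial adhesion molecule, had 9.37, 9.81 and 9.26 in the cultures and 4.50 and 3.79 in the heart libraries. Ocln (occludin, a tight junction strand protein) had 10.42, 10.38 and 10.22 in the cultures and 4.99 and 4.61 in the heart libraries, a smallest gap of 37.8-fold. All 3 genes met the counting rule, which by itself leaves no overlap between the sides. Of the claudins, the other strand proteins of tight junctions, only some separated the sides: 10 of 23 measured were dim, and Cldn3, Cldn4, Cldn6, Cldn7 and Cldn23 were higher in the cultures. Cldn4 had 11.94, 11.42 and 11.76 in the cultures and 6.53 and 5.63 in the heart libraries. By the same rule all 5 lay above the heart libraries in every culture. Cldn6, a claudin of early embryonic epithelia, had 10.13, 10.26 and 10.33 in the cultures and 5.40 and 4.91 in the heart libraries.

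Regulators and surface proteases of epithelia followed. Esrp1, which directs epithelial splicing, had 7.32, 7.04 and 7.22 in the cultures and 4.32 and 4.29 in the heart libraries. Elf3, an epithelial ETS factor, had 8.51, 7.70 and 8.33 in the cultures and 4.32 and 4.11 in the heart libraries. Both heart libraries were below the median for these 2 genes. St14 (matriptase) with its inhibitors Spint1 and Spint2, and Prss8 (prostasin), were all counted for the cultures. Spint2 had 10.82, 10.78 and 10.72 in the cultures and 6.37 and 5.95 in the heart libraries. Desmosomes, which anchor keratin filaments at cell contacts, showed the same split. Dsp (desmoplakin) had 10.52, 10.44 and 10.41 in the cultures and 6.41 and 5.08 in the heart libraries, and Dsg2 and Dsc2, the desmosomal cadherins of simple epithelia and of heart muscle, were 6.66-fold and 7.46-fold higher across the closest pair. Dsg2 was read by 2 probe sets that disagreed: its mean difference was 3.18 over both and 5.34 with the brighter one. The other 7 of 9 measured desmosomal cadherins were below the median everywhere.

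The undifferentiated iPS library had high values for some of these genes and low values for others. Its Cdh1 value was 8.44, its Epcam value 8.91 and its Spint2 value 9.61, while Ocln was at 6.32 and Dsp at 6.33. Over the 30 junction genes 12 were at or above the 75th percentile of all values (6.93) in iPS cells, 21 in every culture and 2 in both heart libraries.

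Promoters of 3 junction genes are printed, chosen because they hold several copies of the letters CACCTG. These letters, read on either strand, are the core that the repressors of the SNAIL and ZEB families bind, and they were present within the 250 bases before a transcription start for 139 of the 471 culture genes with a RefSeq promoter (29.5%). The share was 66 of 493 (13.4%) among genes higher in the heart libraries and 19.3% over the 10961 genes with a promoter that passed the filter. The median GC content was 59.6% for the culture genes, 58.8% for the heart genes and 59.6% for the genes that passed. Over all 27025 genes of the promoter table, whose median GC content was 52.4%, the share was 19.4%. Among promoters with GC of 60% or more the shares were 31.9% for culture genes, 16.2% for heart genes and 19.5% for genes that passed. Below 50% they were 20.3% for culture genes, 9.52% for heart genes and 14.0% for genes that passed. From 50% to below 60% the share was 11.9% for heart genes and 21.2% for genes that passed, and the culture share was above both. The sequences are those of RefSeq on GRCm38.p6, given in the direction of transcription and ending at the base before the listed start, with CACCTG or its reverse complement in capitals. Epcam lies on the forward strand, Spint2 and Ocln on the reverse strand.

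Epcam chr17:87635729-87635978: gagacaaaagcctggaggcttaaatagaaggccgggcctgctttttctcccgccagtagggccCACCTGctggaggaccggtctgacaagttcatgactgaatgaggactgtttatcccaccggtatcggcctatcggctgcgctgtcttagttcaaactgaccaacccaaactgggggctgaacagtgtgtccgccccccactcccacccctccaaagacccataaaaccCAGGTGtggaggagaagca
Spint2 chr7:29281978-29282227: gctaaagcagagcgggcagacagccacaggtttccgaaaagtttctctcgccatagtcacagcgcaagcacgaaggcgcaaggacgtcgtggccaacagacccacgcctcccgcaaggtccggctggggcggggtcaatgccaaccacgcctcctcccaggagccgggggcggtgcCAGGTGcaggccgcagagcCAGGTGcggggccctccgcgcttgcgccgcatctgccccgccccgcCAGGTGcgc
Ocln chr13:100552499-100552748, its second listed start: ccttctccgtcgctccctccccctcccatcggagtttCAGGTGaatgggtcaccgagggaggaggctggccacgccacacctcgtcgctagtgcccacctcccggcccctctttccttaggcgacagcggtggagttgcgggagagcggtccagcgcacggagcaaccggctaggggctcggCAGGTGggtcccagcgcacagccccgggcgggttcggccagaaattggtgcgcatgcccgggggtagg

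Epcam and this start of Ocln held 2 matches each and Spint2 held 3. The first listed start of Ocln and of Cldn7 held 0, the second start of Cldn7 held 2, and Elf3 and Cldn4 held 1 each. In all, 8 motifs were searched, chosen with the values known, each on both strands and each counted whether or not it overlapped another. TGTTTAC, the forkhead core, was found for 5.31% of culture genes, 2.23% of heart genes, 2.69% of genes that passed the filter and 3.54% of all genes. In the same order, TGANTCA, which covers AP-1 sites, was found for 9.98%, 6.29%, 5.93% and 7.82%. GGAATG was found for 15.7%, 14.8%, 12.9% and 14.4%, and GTTAAT for 6.79%, 5.68%, 4.96% and 7.49%. AACCNGTT (1.06%, 1.62%, 1.83% and 2.00%), CAAAGTCCA (0.425%, 0.406%, 0.429% and 0.451%) and the CArG box (2.97%, 3.25%, 1.57% and 1.62%) were rarer. A match is a string of letters and says nothing of binding.

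Keratins, the intermediate filaments of epithelia, were likewise higher in the cultures. Of 15 measured keratins 11 were higher in the cultures and 0 in the heart libraries, with a median difference of 2.98. Krt8 and Krt18, the pair of simple epithelia, differed unequally. Krt8 had 11.83, 12.02 and 11.77 in the cultures and 8.30 and 5.84 in the heart libraries, and Krt18 had 11.95, 11.73 and 11.85 in the cultures and 9.53 and 7.32 in the heart libraries. Both were higher in the neonatal than in the adult heart library. Krt19, found in ducts, simple epithelia and mesothelium, had 11.48, 11.01 and 11.23 in the cultures and 7.61 and 6.45 in the heart libraries. Krt15, a keratin of basal cells in stratified epithelia, had 9.33, 8.61 and 8.64 in the cultures and 3.90 and 4.37 in the heart libraries. Krt20, Krt23 and Krt7 were also counted for the cultures. So were Krt4, Krt6a, Krt16 and Krt17, with mean differences of 2.98, 2.39, 2.49 and 2.08. Krt14, which marks basal keratinocytes, had 5.82, 5.14 and 5.91 in the cultures and 5.27 and 4.59 in the heart libraries.

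Surface genes of stomach and bladder epithelium stood with the cultures too. Of 25 measured, 9 were higher in the cultures and 0 in the heart libraries. Gkn2 and Gkn1 (gastrokines, secreted by the gastric surface) were both counted: Gkn2 had 11.26, 12.19 and 11.82 in the cultures and 4.84 and 5.26 in the heart libraries, and Gkn1 had 9.72, 10.67 and 10.04 in the cultures and 5.58 and 5.59 in the heart libraries. The closest pair for Gkn2 was 64-fold apart. Psca, a surface protein of stomach and bladder, had 10.60, 10.21 and 10.47 in the cultures and 3.97 and 4.38 in the heart libraries. Muc13, a membrane mucin, had 9.67, 9.50 and 9.33 in the cultures and 4.52 and 5.50 in the heart libraries, and Vil1 (villin, of brush borders) had 6.86, 7.26 and 6.88 in the cultures and 4.30 and 4.44 in the heart libraries. Markers of urothelial plaques were mixed: Upk1a was higher in the cultures by 2.75-fold at the closest pair, while Upk3b, also made by mesothelium, had 7.39, 6.30 and 7.02 in the cultures and 8.05 and 6.19 in the heart libraries and the groups overlapped.

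The cornified envelope list, the outer layer of skin, was counted about as often as the background of 4.65%. Of 22 measured members 1 was higher in the cultures and 0 in the heart libraries. By side means 17 were higher in the cultures, with a median difference of 0.41. The 1 counted was Ivl (involucrin), with 10.69, 10.21 and 10.40 in the cultures and 5.83 and 5.66 in the heart libraries. Sprr1a, another envelope precursor, had 12.80, 12.34 and 12.71 in the cultures and 11.48 and 9.83 in the heart libraries, so it was high on both sides, against 4.77 in iPS cells. Scel (sciellin) had 9.38, 8.21 and 9.01 in the cultures and 7.58 and 8.32 in the heart libraries, and the groups overlapped. Lor and Flg, which mark terminal keratinocytes, were counted for neither side.

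Secreted proteins of yolk sac and liver were the second lineage high in the cultures. Of 24 measured, 12 were higher in the cultures and 0 in the heart libraries, with a median difference of 1.95. Afp (alpha-fetoprotein) had 10.72, 11.48 and 10.81 in the cultures, against 4.99 and 4.89 in the heart libraries and 4.76 in iPS cells. The NRG-1 culture was highest, and the closest pair was 53-fold apart. Apoa1, the main protein of high-density lipoprotein, had 9.57, 10.09 and 9.41 in the cultures and 4.996 and 4.84 in the heart libraries. These values were far above the iPS level of 4.90 as well. The fibrinogen chains Fgb and Fgg were both counted: Fgb had 9.70, 10.41 and 9.37 in the cultures and 5.02 and 4.53 in the heart libraries, and Fgg had 8.20, 8.52 and 7.98 in the cultures and 3.93 and 3.95 in the heart libraries, whereas Fga had 4.64, 5.08 and 4.70 in the cultures and 3.68 and 4.23 in the heart libraries. Ttr (transthyretin) and Rbp4, which carry thyroid hormone and retinol in plasma, were both counted: Ttr was 10.2-fold higher in the cultures at the closest pair, and Rbp4 had 10.01, 10.69 and 9.38 in the cultures and 5.92 and 6.38 in the heart libraries. Cubn and Lrp2 (cubilin and megalin, endocytic receptors of visceral endoderm) were higher in the cultures by 6.14-fold and 4.81-fold at the closest pair. Alb (albumin), the defining product of mature hepatocytes, stayed at 3.95, 3.75 and 3.92 in the cultures and 3.77 and 3.77 in the heart libraries, below the median in all 5.

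Among endoderm transcription factors, fewer had a 2-fold gap. Of 20 measured 5 were higher in the cultures and 0 in the heart libraries. Foxa2 and Foxa1, forkhead factors that open endodermal enhancers, were both counted: Foxa2 had 9.12, 9.58 and 9.35 in the cultures and 6.89 and 7.22 in the heart libraries, and Foxa1 had 8.94, 7.92 and 8.50 in the cultures and 5.60 and 4.92 in the heart libraries. Sox7, a factor of extraembryonic endoderm and endothelium, had 7.23, 7.78 and 7.43 in the cultures and 4.93 and 5.84 in the heart libraries, and Sox17 missed the 2-fold gap with 7.74, 8.13 and 8.36 in the cultures and 5.85 and 6.82 in the heart libraries. Gata4 and Gata6, shared by endoderm and heart, were high on both sides: Gata6 had 10.48, 10.65 and 10.75 in the cultures and 10.08 and 9.49 in the heart libraries. Hnf4a, a hepatic and visceral endoderm factor, had 6.39, 6.69 and 6.79 in the cultures and 5.28 and 5.57 in the heart libraries.

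**Figure D2:**
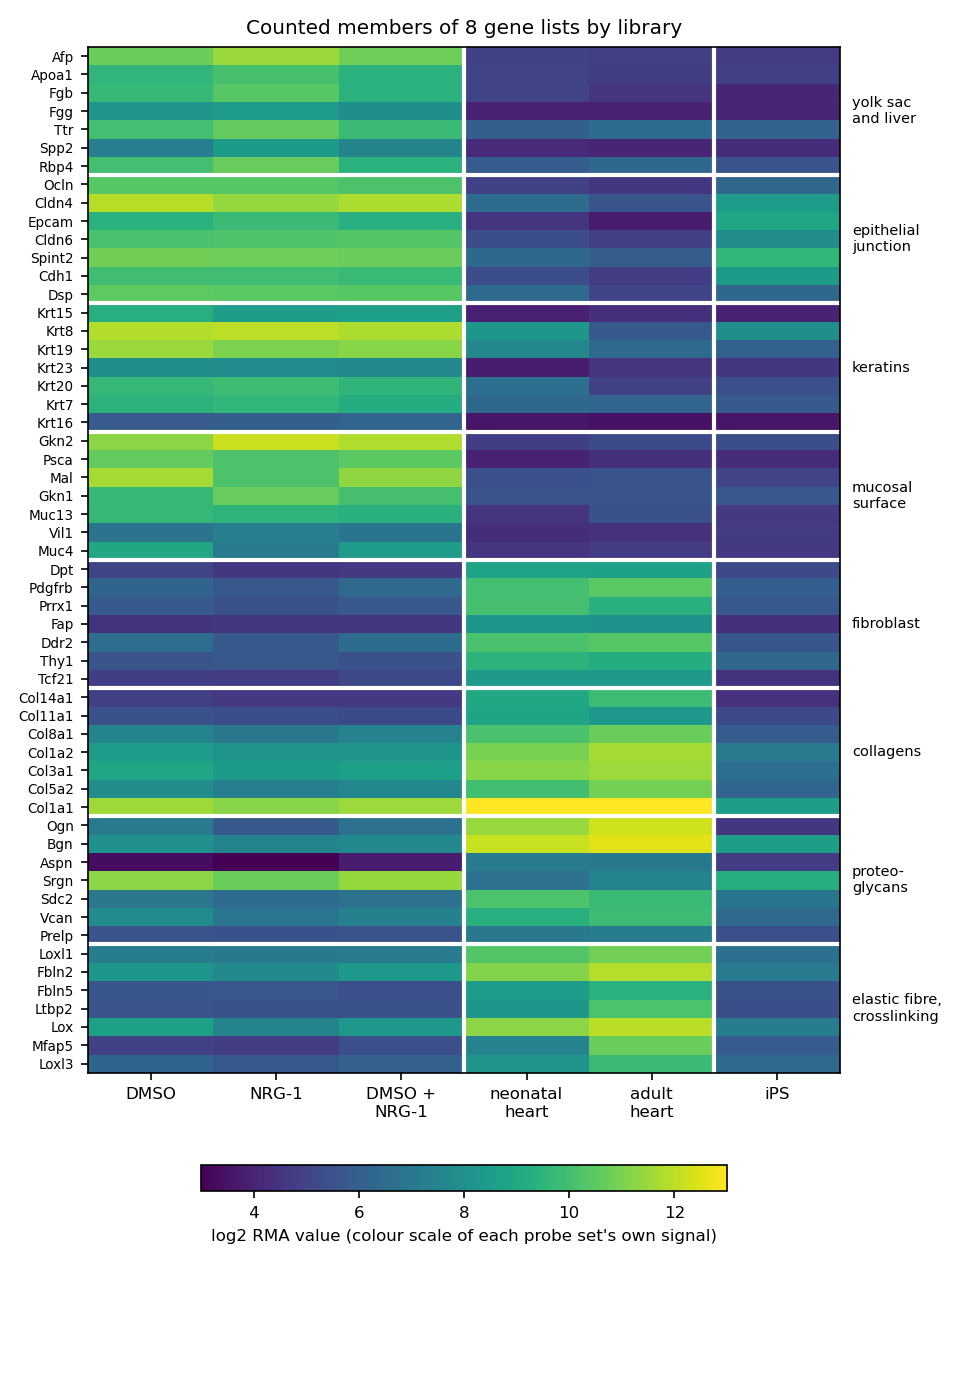
Log2 RMA values of counted members of 8 gene lists (rows, up to 7 of each with the widest smallest gap) in the 3 cultures, the 2 heart libraries and iPS cells (columns), where colours compare libraries within a row and not rows with each other. Rows of the upper 4 lists are bright in the cultures, and rows of the lower 4 lists are bright in the heart libraries, apart from Srgn among the proteoglycans.

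Genes of the pluripotent state were low in the cultures relative to iPS cells, yet some were higher than in the heart libraries. Of 29 measured pluripotency genes 12 were higher in the cultures and 0 in the heart libraries, although 25 of the 29 were at or above the 75th percentile in iPS cells and only 6 in every culture. Sox2, a core factor of pluripotency also used in foregut and neural tissue, had 7.89, 6.70 and 7.24 in the cultures, against 4.60 and 4.76 in the heart libraries and 11.49 in iPS cells. The DMSO culture was highest. Fbxo15, Dppa2 and Tdgf1, all strong in iPS cells (10.24, 10.76 and 11.95), were lower in every culture and lower still in the heart libraries. Fbxo15 had 7.08, 7.53 and 7.61 in the cultures and 4.04 and 4.41 in the heart libraries, and Tdgf1 (the Nodal co-receptor Cripto) had 6.57, 5.50 and 6.02 in the cultures and 3.85 and 4.25 in the heart libraries. Klf4 and Klf5, reprogramming factors that epithelia also use, did not follow the iPS cells, since every culture had more Klf4 than they did: Klf4 had 9.88, 10.60 and 10.19 in the cultures, 7.47 and 7.64 in the heart libraries and 8.42 in iPS cells, and Klf5 had 10.86, 11.02 and 10.81 in the cultures, 7.15 and 6.66 in the heart libraries and 10.29 in iPS cells. Pou5f1 and Nanog, the defining factors, were counted for neither side. Pou5f1 had 5.34, 5.80 and 5.50 in the cultures and 5.36 and 5.65 in the heart libraries, and Nanog had 4.55, 4.29 and 4.39 in the cultures and 4.60 and 4.83 in the heart libraries.

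Some of the widest gaps lay outside these lists. Lama1, the laminin chain of the earliest basement membranes, had the widest of all on the culture side, with 11.69, 12.10 and 12.16 in the cultures, against 5.09 and 5.06 in the heart libraries and 8.76 in iPS cells. The closest pair was 97-fold apart. Bex1, a small brain-expressed X-linked protein, had 10.38, 11.42 and 10.54 in the cultures, 5.11 and 4.40 in the heart libraries and 11.04 in iPS cells, and its relatives Bex2 and Bex4 were also counted for the cultures, whereas Bex3 was high everywhere. Slc2a3, a neuronal and embryonic glucose transporter, had 10.01, 9.47 and 10.14 in the cultures and 5.65 and 5.73 in the heart libraries. Kit, the receptor of stem cell factor, had 10.54, 10.84 and 10.94 in the cultures and 6.62 and 6.30 in the heart libraries. Trpv3, a cation channel of keratinocytes, and Ceacam1, an epithelial adhesion molecule, were 27.8-fold and 32.5-fold higher in the cultures at the closest pair. The family of Clca genes, secreted regulators of chloride channels, split between the sides, with Clca1, Clca3b, Clca4a and Clca4b higher in the cultures and Clca3a1 higher in the heart libraries (5.11, 4.78 and 5.34 in the cultures, 8.94 and 9.38 in the heart libraries).

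Fibroblast genes were high in the heart libraries and, for the most part, lower in the cultures. Of 28 measured fibroblast identity genes 16 were higher in the heart libraries and 0 in the cultures, against a background of 4.72% and 4.65%, and the median difference was -2.08. Pdgfrb, a receptor of mesenchymal and mural cells, had 6.24, 5.72 and 6.46 in the cultures, against 10.03 and 10.44 in the heart libraries. Ddr2, the fibroblast receptor for fibrillar collagen, had 6.61, 5.79 and 6.54 in the cultures and 10.11 and 10.35 in the heart libraries. Tcf21, a transcription factor of epicardium-derived fibroblasts, had 4.84, 4.76 and 5.15 in the cultures and 8.42 and 8.36 in the heart libraries, so the cultures were near the iPS value of 4.48. Thy1, Fap, Dpt and Prrx1 showed the same pattern, with closest pairs 10.8-fold, 11.4-fold, 12.5-fold and 11.4-fold apart.

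Other fibroblast genes had no 2-fold gap between the sides. Pdgfra, which also marks early mesoderm and primitive endoderm, had 10.43, 10.65 and 10.69 in the cultures, 10.78 and 11.25 in the heart libraries and 7.13 in iPS cells. Postn (periostin) had 9.36, 8.37 and 9.50 in the cultures and 10.48 and 11.97 in the heart libraries. Vim (vimentin, the filament of mesenchyme) had 11.61, 10.80 and 11.53 in the cultures and 12.48 and 12.34 in the heart libraries. Of the 28 genes, 23 were at or above the 75th percentile in both heart libraries, 8 in every culture and 7 in iPS cells.

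Matrix genes differed by kind. Of 36 measured collagens 9 were higher in the heart libraries and 0 in the cultures. They included chains of fibrillar collagens: Col1a2 had 8.48, 8.17 and 8.22 in the cultures and 10.97 and 11.65 in the heart libraries, and Col3a1 had 8.93, 8.44 and 8.65 in the cultures and 11.23 and 11.54 in the heart libraries. Col14a1, which sits on fibril surfaces, had the widest gap with 4.88, 4.68 and 4.71 in the cultures and 8.98 and 9.87 in the heart libraries. Basement membrane collagens were not alike. Col4a5 was 2.24-fold higher in the heart libraries at the closest pair, whereas Col4a1 and Col4a2 had no such gap: Col4a1 had 11.04, 11.87 and 11.38 in the cultures and 10.28 and 10.89 in the heart libraries. Col18a1, another basement membrane collagen, had 7.47, 7.40 and 7.58 in the cultures and 6.01 and 6.66 in the heart libraries.

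Small leucine-rich and large proteoglycans were counted for both sides. Of 28 measured, 7 were higher in the heart libraries and 2 in the cultures. Ogn (osteoglycin) had 7.10, 5.82 and 6.74 in the cultures, against 11.46 and 12.26 in the heart libraries, with the adult library highest. Bgn (biglycan) had 8.07, 7.45 and 7.67 in the cultures, 12.17 and 12.57 in the heart libraries and 8.62 in iPS cells. Aspn (asporin) had 3.35, 2.999 and 3.76 in the cultures and 7.08 and 7.06 in the heart libraries. These 3 genes had the order of the fibroblast genes, with both heart libraries well above every culture. Srgn, the granule proteoglycan serglycin, ran the other way with 11.26, 10.76 and 11.40 in the cultures and 6.72 and 7.47 in the heart libraries. Gpc3, a membrane glypican, was the second gene higher in the cultures, with 9.85, 9.87 and 9.87 there and 8.74 and 5.38 in the heart libraries. Of 21 elastic fibre and crosslinking genes 12 were higher in the heart libraries and 0 in the cultures, with a median difference of -1.83. Fbln2 and Fbln5 (fibulins) were both counted: Fbln2 had 8.27, 7.80 and 8.33 in the cultures and 11.15 and 11.89 in the heart libraries, and Fbln5 had 5.67, 5.71 and 5.43 in the cultures and 8.51 and 9.39 in the heart libraries. Lox and Loxl1, the enzymes that crosslink collagen and elastin, were 5.98-fold and 8.56-fold higher in the heart libraries at the closest pair. Mgp, an inhibitor of matrix calcification, had 6.16, 5.74 and 5.92 in the cultures and 9.98 and 10.002 in the heart libraries, and Adamts5, a protease that cleaves aggrecan and versican, had 4.88, 4.54 and 5.10 in the cultures and 9.01 and 8.76 in the heart libraries.

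**Figure D3:**
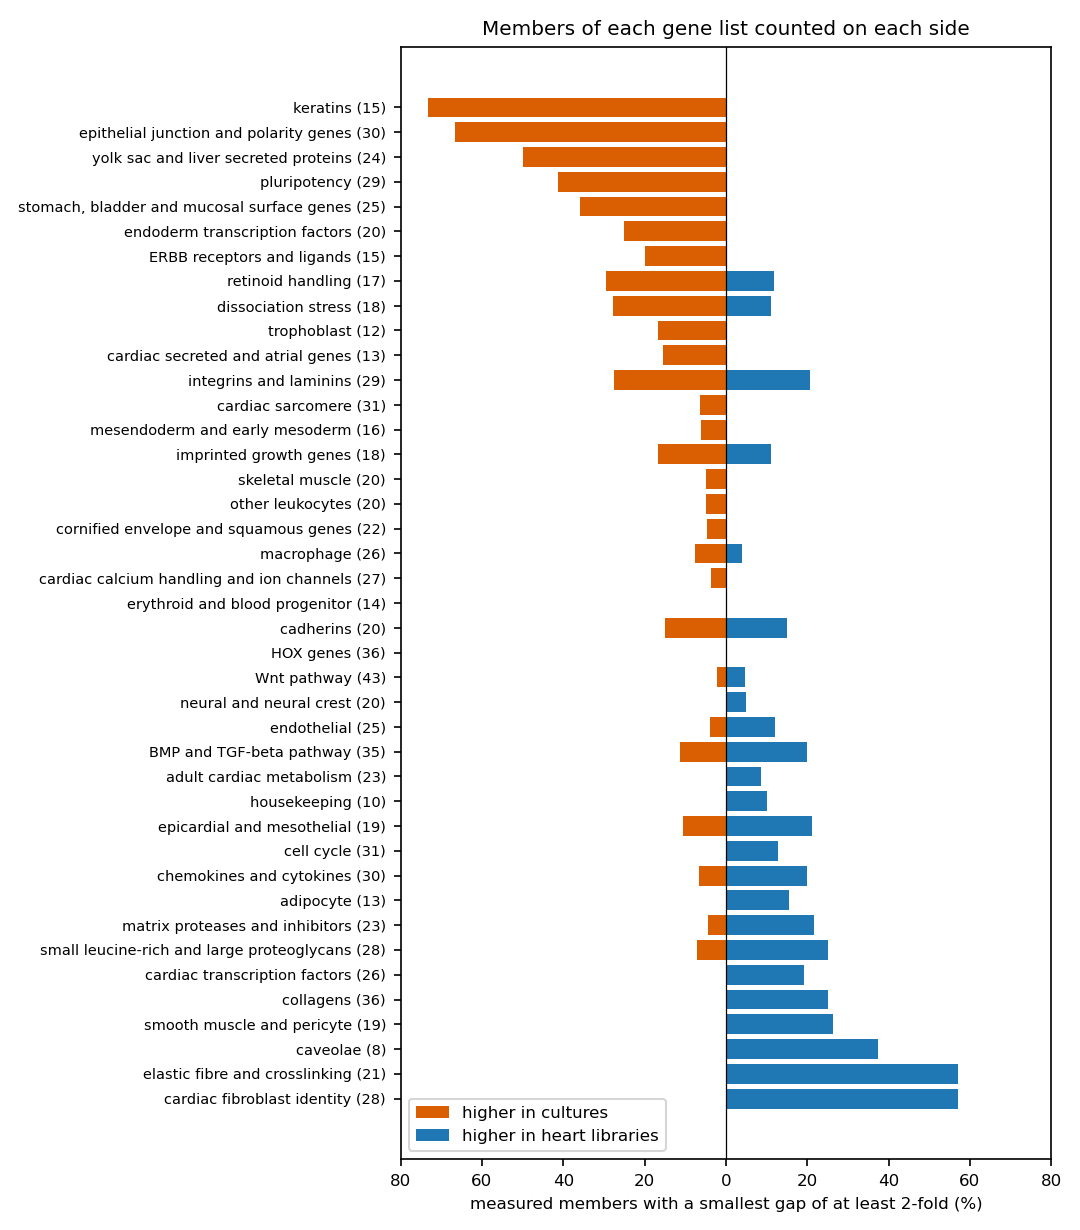
Share of the measured members of each gene list but the sex-linked one (number in brackets) that were at least 2-fold apart across the closest pair of libraries, with members higher in the cultures to the left and members higher in the heart libraries to the right. Keratins and epithelial junction genes reach furthest left, and fibroblast identity and elastic fibre genes furthest right. The backgrounds were 4.65% and 4.72% of the 14099 genes that passed the filter. The bars are shares of all measured members, dim ones included.

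Vascular genes were uneven. Of 19 smooth muscle and pericyte genes 5 were higher in the heart libraries and 0 in the cultures, with a median difference of -0.83. By side means 17 were higher in the heart libraries. Tagln and Cnn1 were among the 5, with mean differences of -1.56 and -1.80. Acta2 (smooth muscle actin) had 11.82, 11.12 and 11.85 in the cultures and 13.61 and 13.60 in the heart libraries, so it was high on both sides. Myh11, the myosin that defines mature smooth muscle, had 5.61, 5.96 and 5.77 in the cultures and 6.34 and 6.19 in the heart libraries, without a 2-fold gap. Gucy1a1 and Gucy1b1, which form the soluble guanylate cyclase that senses nitric oxide, were both counted: Gucy1a1 had 6.12, 4.82 and 5.24 in the cultures and 11.38 and 8.42 in the heart libraries, and Gucy1b1 had 7.46, 5.88 and 7.06 in the cultures and 11.48 and 10.82 in the heart libraries. Gucy1a2 was also counted for the heart libraries, and the remaining subunit measured was dim.

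The gene with the widest gap of all on the heart side was Esm1 (endocan, a proteoglycan known from endothelium), with 4.48, 4.12 and 4.55 in the cultures, against 11.31 and 10.74 in the heart libraries and 4.38 in iPS cells. Its closest pair was 73-fold apart. Eng (endoglin, a TGF-beta co-receptor of endothelium and activated fibroblasts) had 6.22, 5.76 and 5.98 in the cultures, 10.70 and 10.92 in the heart libraries and 8.74 in iPS cells, and Fli1, an endothelial and blood ETS factor, had 5.37, 4.83 and 4.97 in the cultures and 9.01 and 8.58 in the heart libraries. Of the genes that define endothelium, Pecam1, Cdh5 and Kdr had no 2-fold gap. Pecam1 had 6.09, 6.09 and 6.21 in the cultures and 6.38 and 6.63 in the heart libraries, Cdh5 (VE-cadherin) had 8.38, 8.35 and 8.80 in the cultures and 7.62 and 8.99 in the heart libraries, and Kdr had 5.34, 5.41 and 5.47 in the cultures and 5.67 and 5.85 in the heart libraries. Of 25 endothelial genes 3 were higher in the heart libraries, namely Eng, Fli1 and Emcn (endomucin), which had a mean difference of -2.19. The 1 higher in the cultures was Flt1, with 8.81, 9.23 and 8.95 there and 7.45 and 5.49 in the heart libraries.

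Caveolae, the membrane pits of fat, muscle and endothelium, had 3 of 8 genes higher in the heart libraries and 0 in the cultures, among them Cavin2 (7.79, 6.80 and 7.33 in the cultures, 10.84 and 9.89 in the heart libraries). Further genes with wide gaps on the heart side were Lrrc32, which tethers latent TGF-beta to the cell surface, with 7.14, 6.20 and 7.02 in the cultures and 11.79 and 12.10 in the heart libraries, and Piezo2, a mechanically gated channel, with 5.56, 5.46 and 5.69 in the cultures and 10.18 and 10.11 in the heart libraries. Vcam1, a leukocyte adhesion molecule, had 6.19, 6.42 and 6.36 in the cultures and 10.99 and 10.52 in the heart libraries. Sting1, which acts in sensing of cytosolic DNA, and Mlkl, which acts in necroptosis, were both counted: Sting1 had 4.94, 4.35 and 4.92 in the cultures and 9.17 and 9.36 in the heart libraries, and Mlkl had 4.25, 4.65 and 4.44 in the cultures and 9.32 and 8.69 in the heart libraries.

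Within several gene families the sides used different members. Among 20 measured cadherins, Cdh1, Cdh6 and Cdh17 were higher in the cultures, and Cdh2, Cdh11 and Cdh10 in the heart libraries. Cdh2 (N-cadherin), the cadherin of mesenchyme and of heart muscle, had 7.30, 7.03 and 7.23 in the cultures and 10.96 and 11.19 in the heart libraries, and Cdh11, a fibroblast cadherin, had 6.78, 5.84 and 6.79 in the cultures and 10.57 and 9.52 in the heart libraries. Cdh17, a cadherin of gut epithelium, had 6.29, 6.94 and 6.54 in the cultures and 4.56 and 4.58 in the heart libraries. Laminins, the trimers of basement membranes, were split by alpha chain. Lama1 and Lama5, the epithelial chains, were higher in the cultures, and Lama2 and Lama4, the chains of muscle and vessel basement membranes, in the heart libraries. Lama5 had 8.88, 8.63 and 8.84 in the cultures and 6.54 and 6.11 in the heart libraries, and Lama2 had 4.88, 4.86 and 4.97 in the cultures and 7.62 and 9.21 in the heart libraries. The integrin receptors were split likewise. Itga6 and Itgb4, which pair as the laminin receptor of hemidesmosomes, were 4.56-fold and 3.45-fold higher in the cultures at the closest pair. Itga1, a collagen receptor chain, had 5.13, 5.06 and 5.11 in the cultures and 8.04 and 8.40 in the heart libraries, and Itgb2, the leukocyte integrin chain, had 5.42, 5.57 and 5.38 in the cultures and 7.86 and 7.65 in the heart libraries. In all, 8 of 29 integrin and laminin genes were higher in the cultures and 6 in the heart libraries.

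Ligands of the TGF-beta superfamily showed a similar exchange, with 4 of 35 genes of that pathway higher in the cultures and 7 in the heart libraries. Bmp2 had 9.36, 9.80 and 9.39 in the cultures and 5.59 and 4.60 in the heart libraries, and Bmp7 was 3-fold higher in the cultures at the closest pair. Gdf6, Tgfb3 and Inhba (the activin beta A chain) were higher in the heart libraries. Inhba had 7.27, 5.81 and 7.27 in the cultures and 10.25 and 10.07 in the heart libraries, and its inhibitor Fst (follistatin) had 11.02, 11.56 and 11.52 in the cultures and 6.97 and 7.79 in the heart libraries. Id1 and Id3, common targets of BMP signalling, were higher in the heart libraries, with Id3 at 6.10, 5.30 and 6.13 in the cultures and 9.18 and 9.56 in the heart libraries. Retinoic acid genes were counted for both sides, 5 of 17 for the cultures and 2 for the heart libraries. Rdh10, which makes retinaldehyde, and Cyp26a1, which degrades retinoic acid, were both counted: Rdh10 had 10.87, 10.54 and 10.75 in the cultures and 7.59 and 7.50 in the heart libraries, and Cyp26a1 had 10.03, 10.60 and 10.32 in the cultures and 7.43 and 6.74 in the heart libraries. Aldh1a2, the enzyme that makes retinoic acid in mesoderm and epicardium, had 4.23, 4.64 and 4.79 in the cultures and 6.27 and 8.70 in the heart libraries.

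Receptors and ligands of the ERBB pathway, the target of NRG-1, had 3 of 15 genes higher in the cultures and 0 in the heart libraries. Erbb3, a receptor that binds NRG-1, had 7.77, 7.61 and 7.75 in the cultures, 5.08 and 5.21 in the heart libraries and 7.83 in iPS cells, and the ligands Hbegf and Nrg2 were 2.34-fold and 2.37-fold higher in the cultures at the closest pair. The counting rule itself puts the DMSO culture, which received no NRG-1, on the same side as the others for all 3 genes. Whether added NRG-1 changed these genes was not tested. Wnt pathway genes were near the background, with 1 of 43 higher in the cultures (Lgr4, a receptor for R-spondins) and 2 in the heart libraries (the Wnt inhibitors Sfrp1 and Frzb). Sfrp1 had 8.19, 7.05 and 7.68 in the cultures and 10.46 and 10.15 in the heart libraries. Of 18 imprinted growth genes 3 were higher in the cultures (Peg10, Peg3 and Gpc3) and 2 in the heart libraries (Grb10 and Igf2r). Grb10, an adaptor that restrains growth factor receptors, had 5.80, 5.62 and 5.66 in the cultures, 11.12 and 10.18 in the heart libraries and 8.04 in iPS cells.

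Transcription factor families were divided as well. All 4 nuclear factor I genes were higher in the heart libraries: Nfib had 6.69, 5.36 and 6.43 in the cultures and 10.39 and 9.73 in the heart libraries, and Nfia, Nfic and Nfix were 6.98-fold, 3.97-fold and 2.37-fold apart at the closest pair. Of 43 forkhead genes 5 were counted for each side. Foxa1, Foxa2, Foxf1, Foxo4 and Foxq1 were higher in the cultures, and Foxc1, Foxc2, Foxp1, Foxp2 and Foxs1 in the heart libraries. Foxc2, a factor of paraxial and vascular mesenchyme, had 5.39, 5.03 and 4.92 in the cultures and 8.04 and 7.71 in the heart libraries.

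Cardiac muscle genes separated the sides little. Of 31 measured sarcomere genes 2 were higher in the cultures and 0 in the heart libraries, near the background of 4.65% and 4.72%, and the median difference was 0.39. Myl3, the essential light chain of ventricular and slow muscle, had 7.04, 7.93 and 7.33 in the cultures, against 5.30 and 5.22 in the heart libraries. The NRG-1 culture was highest. Acta1, skeletal actin that the fetal heart also uses, had 9.06, 9.81 and 9.11 in the cultures and 6.75 and 7.60 in the heart libraries. The defining markers of adult working myocardium did not stand out in either heart library. Myh6, the adult mouse cardiac myosin heavy chain, had 7.04, 5.93 and 7.03 in the cultures, 6.47 and 5.05 in the heart libraries and 5.82 in iPS cells. The adult heart library was the lowest of these 6 values. Myl2, the ventricular regulatory light chain, lay between 4.94 in iPS cells and 5.70 in the DMSO culture, with 5.55 and 5.33 in the heart libraries. Tnni3 (cardiac troponin I) had 7.11, 6.91 and 7.06 in the cultures and 7.01 and 5.78 in the heart libraries, and Ckm, the creatine kinase of striated muscle, had 5.19, 5.09 and 5.06 in the cultures and 5.15 and 5.37 in the heart libraries. Gene by gene, 10 of 31 sarcomere genes were at least 2-fold above the iPS value in every culture and 4 in both heart libraries. The same count for fibroblast identity genes was 5 of 28 in every culture and 23 in both heart libraries. Such a count rests on the lowest library of a side, which for most sarcomere genes on the heart side was the adult one. These markers do not bear out the label cardiomyocyte for the adult library. For the neonatal library cardiac markers were mixed, since its Tnnt2 and Nppa, given below, lay above every culture. Myh7 and Myl7, the slow myosin heavy chain and the atrial light chain that early heart muscle uses, were higher in all 3 cultures than in either heart library but without a 2-fold gap. Myh7 had 6.36, 6.81 and 7.02 in the cultures and 5.75 and 4.82 in the heart libraries, and Myl7 had 6.33, 6.71 and 6.98 in the cultures and 5.51 and 4.12 in the heart libraries.

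The adult library was lower than the neonatal one for 24 of the 31 sarcomere genes, for 8 of them by 2-fold or more, and was 2-fold higher for 0. Acta1 was among those higher in the adult library, and of the 20 skeletal muscle genes 4 were lower there. Tnnt2 (cardiac troponin T) had 9.32, 8.50 and 9.32 in the cultures and 9.76 and 8.22 in the heart libraries, with the neonatal value the highest of the 5 and the adult value the lowest. Actc1 (cardiac actin) had 8.44, 7.46 and 8.20 in the cultures and 8.03 and 5.72 in the heart libraries. Nppa (atrial natriuretic peptide) had 6.97, 6.39 and 6.66 in the cultures and 10.31 and 5.06 in the heart libraries, so the cultures fell between the neonatal and the adult library. Nppb, the B-type peptide made under wall stress and in the embryo, did separate the sides, with 9.54, 9.21 and 9.14 in the cultures and 6.19 and 5.40 in the heart libraries. Pln (phospholamban) had 6.29, 5.58 and 6.26 in the cultures and 7.13 and 4.58 in the heart libraries, whereas Ryr2, the calcium release channel, had 7.17, 7.43 and 7.53 in the cultures and 5.31 and 4.96 in the heart libraries and was the 1 of 27 calcium handling and channel genes counted. Among the cultures, NRG-1 alone had the lowest Myh6, Actn2 and Actc1 and the highest Myl3, Mybpc3 and Acta1. Mybpc3 (cardiac myosin-binding protein C) had 6.35, 7.48 and 6.84 in the cultures and 5.95 and 5.34 in the heart libraries.

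Cardiac transcription factors were counted for the heart libraries only. Of 26 measured 5 were higher in the heart libraries and 0 in the cultures, and the median difference was -0.04. Tbx20, needed in heart muscle and also present in cardiac fibroblasts, had 7.07, 6.96 and 7.10 in the cultures, 10.12 and 10.81 in the heart libraries and 5.66 in iPS cells. Tbx18, a factor of epicardium and its derivatives, had 5.04, 4.88 and 5.04 in the cultures and 8.35 and 8.60 in the heart libraries. Zfpm2, the GATA4 cofactor, had 4.43, 4.41 and 4.50 in the cultures and 7.66 and 7.38 in the heart libraries, and Hand2 had 6.03, 5.95 and 5.93 in the cultures and 7.49 and 7.49 in the heart libraries. Ankrd1, a stretch-responsive cofactor, was high in all 5, with 11.26, 10.30 and 11.14 in the cultures and 12.85 and 12.73 in the heart libraries. Nkx2-5, which specifies heart muscle, had 6.71, 6.82 and 6.85 in the cultures, 6.47 and 7.19 in the heart libraries and 6.69 in iPS cells, and the groups overlapped. Gata4 was slightly higher in the cultures, with 8.82, 9.35 and 9.16, against 8.27 and 8.14 in the heart libraries. Adult cardiac metabolism had 2 of 23 genes counted, both for the heart libraries and both lipid genes that adipocytes and capillaries share: Fabp4 (4.81, 4.05 and 3.95 in the cultures, 8.03 and 8.06 in the heart libraries) and Lpl (5.52, 5.62 and 5.35 in the cultures, 7.24 and 8.04 in the heart libraries). Adipoq and Plin1, which define adipocytes, were counted for neither side.

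**Figure D4:**
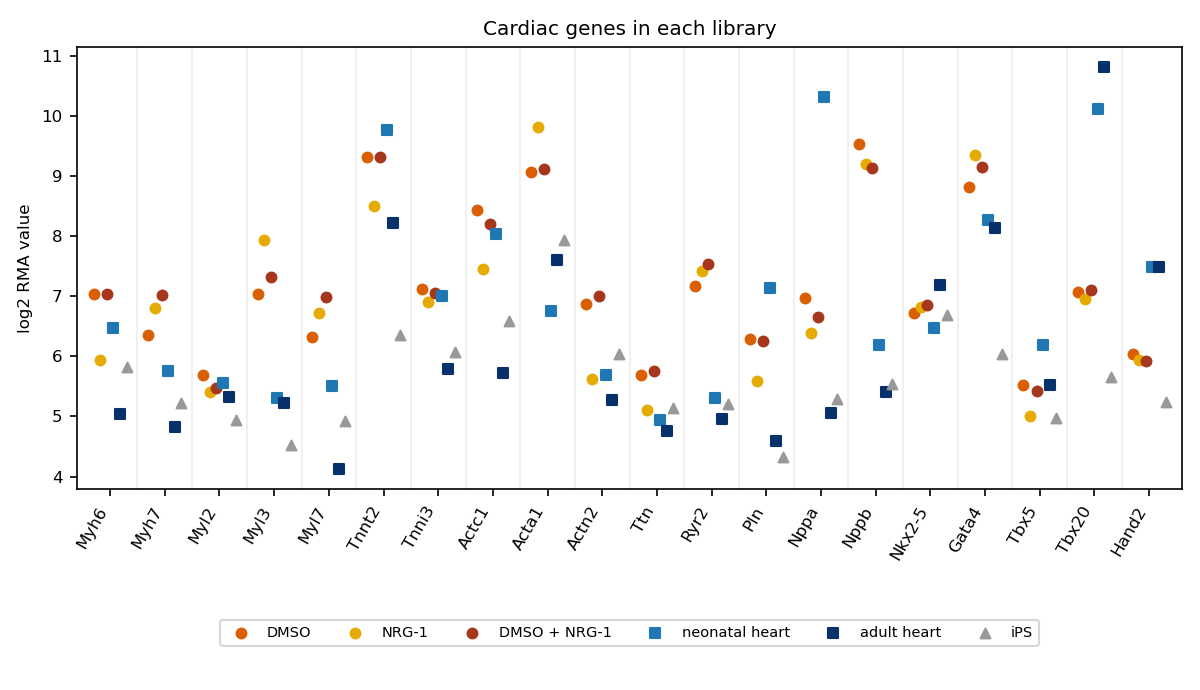
Log2 RMA values (vertical axis) of 20 cardiac genes in the 3 cultures (circles), the 2 heart libraries (squares) and iPS cells (triangles), comparable within a gene only. Among the sarcomere genes shown only Myl3 and Acta1 have a 2-fold gap, both higher in the cultures, while Tbx20 and Hand2 are higher in the heart libraries and the neonatal library alone is high for Nppa.

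Epicardial and mesothelial genes were split within the list, 4 of 19 being higher in the heart libraries and 2 in the cultures. The heart side held Tbx18, Tcf21, Sema3d and Aldh1a2, and the culture side the keratins Krt8 and Krt19, which other epithelia share. Wt1, the defining epicardial factor, had 7.08, 7.02 and 6.94 in the cultures, 8.46 and 6.87 in the heart libraries and 8.003 in iPS cells. Msln (mesothelin) had 10.35, 8.34 and 9.93 in the cultures and 7.36 and 7.08 in the heart libraries, just short of the 2-fold gap, with the NRG-1 culture the lowest of the cultures.

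Macrophage genes were seldom counted. Of 26 measured, 1 was higher in the heart libraries and 2 in the cultures, near the background of 4.72% and 4.65%. By side means 20 were higher in the heart libraries and 6 in the cultures, with a median difference of -0.52. For 11 of the 26 the adult library was at least 2-fold above the neonatal one, and the smallest gap rests on the lower of the 2. Lyz2 (lysozyme) had 4.64, 4.61 and 4.79 in the cultures and 5.98 and 8.24 in the heart libraries, and C1qb, a complement gene of tissue macrophages, had 4.35, 4.59 and 4.84 in the cultures and 5.45 and 7.03 in the heart libraries, the adult library being the highest for both. Cd68 and Csf1r ran the other way: Cd68, a lysosomal protein, had 11.22, 10.90 and 11.30 in the cultures and 7.25 and 8.82 in the heart libraries, and Csf1r, a receptor also found in trophoblast and embryonic cells, had 8.04, 8.21 and 8.13 in the cultures and 6.09 and 6.25 in the heart libraries. Ptprc (CD45), which defines leukocytes, had 3.51, 3.55 and 3.58 in the cultures and 3.89 and 4.68 in the heart libraries. Csf1, the ligand of the receptor Csf1r, was higher in the heart libraries, with 6.92, 6.85 and 7.10 in the cultures and 10.71 and 11.14 in the heart libraries. Among 30 chemokines and cytokines 6 were higher in the heart libraries and 2 in the cultures. Cxcl12, a stromal chemokine, had 7.40, 6.94 and 7.12 in the cultures and 11.18 and 10.19 in the heart libraries, and Cxcl16 had 9.69, 9.42 and 9.70 in the cultures and 7.45 and 7.06 in the heart libraries.

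Genes of several other lineages were seldom counted, and many were dim. Of 36 measured HOX genes 0 were counted for either side and 24 were below the median in all 5 libraries. Of 14 erythroid and blood progenitor genes 0 were counted and 7 were dim. Among 20 markers of other leukocytes 16 were dim, and the 1 gene counted was Kit. Neural and neural crest genes had 9 of 20 dim and 1 counted, Tubb3, a tubulin that fibroblasts in culture also express, with 5.61, 5.05 and 5.73 in the cultures and 8.77 and 8.78 in the heart libraries. Skeletal muscle genes had 9 of 20 dim, and Acta1 was the 1 counted. Trophoblast genes were not low throughout: 2 of 12 were higher in the cultures, Krt7 and the imprinted gene Peg10 (10.82, 11.33 and 11.01 in the cultures, 7.46 and 7.78 in the heart libraries, 9.96 in iPS cells), while 5 were dim.

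Cell cycle genes were mostly lower in the cultures, though most had no 2-fold gap. Of 31 measured 4 were higher in the heart libraries and 0 in the cultures, against a background of 4.72% and 4.65%. The median difference was -0.81, and 28 of the 31 had a higher mean in the heart libraries. Plk1, a mitotic kinase, had 7.47, 7.63 and 7.66 in the cultures, 10.04 and 8.99 in the heart libraries and 10.02 in iPS cells. Mki67, the proliferation antigen, had 8.40, 8.44 and 8.76 in the cultures and 10.29 and 9.66 in the heart libraries, the neonatal library being the higher one. Ccnd1 (cyclin D1) had 8.24, 7.71 and 8.0 in the cultures and 10.25 and 9.94 in the heart libraries. Immediate early and stress genes, which respond to handling, went both ways, with 5 of 18 higher in the cultures and 2 in the heart libraries. Atf3 had 11.55, 11.42 and 11.63 in the cultures and 7.33 and 7.59 in the heart libraries, and Fosb had 10.51, 10.25 and 10.56 in the cultures and 6.83 and 7.59 in the heart libraries. Egr2 had 6.13, 6.13 and 6.06 in the cultures and 7.21 and 9.35 in the heart libraries. The part of sample handling in the other results was not tested.

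Most microRNA genes with a 2-fold gap lay at 3 places in the genome. The array's probe sets for these genes do not tell the mature microRNA from its precursor or host transcript. Of 478 measured microRNA genes 300 were dim, 12 were higher in the cultures and 3 in the heart libraries. Mir3088 and Mir1949 were the 2 counted outside those places. Mir3088 had 5.62, 5.67 and 5.69 in the cultures and 4.25 and 4.36 in the heart libraries, and Mir1949 had 4.62, 5.05 and 6.02 in the cultures, 8.24 and 7.71 in the heart libraries and 9.06 in iPS cells. Of the 71 microRNA genes that lie inside Sfmbt2 on chromosome 2, in the region of a cluster known from placenta, 22 were measured, 13 passed the filter, 6 were higher in the cultures (Mir669k, Mir669j, Mir669g, Mir669h, Mir466b-2 and Mir466b-3) and 0 in the heart libraries. Mir669k had 8.63, 8.85 and 8.85 in the cultures, 5.27 and 5.38 in the heart libraries and 7.76 in iPS cells, and Mir669j had 8.44, 8.34 and 8.90 in the cultures and 5.45 and 5.09 in the heart libraries. Sfmbt2, the imprinted Polycomb gene around them, had 8.72, 8.69 and 9.22 in the cultures, 5.33 and 5.52 in the heart libraries and 8.01 in iPS cells, so iPS cells again lay between the sides. These microRNA genes are near copies of each other, so their probe sets may share signal.

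At the imprinted Dlk1 to Dio3 region of chromosome 12, 43 of 61 microRNA genes were measured, 30 passed the filter, 5 were higher in the cultures and 0 in the heart libraries. Mir382 had 7.80, 7.75 and 7.95 in the cultures, 5.61 and 4.98 in the heart libraries and 5.76 in iPS cells. Mir300 had 6.94, 6.45 and 6.78 in the cultures and 4.65 and 4.26 in the heart libraries, and Mir377, Mir337 and Mir3070b were 3.15-fold, 3.15-fold and 2.18-fold higher in the cultures at the closest pair. The long transcripts of the region had no 2-fold gap: Rian had 10.52, 10.89 and 10.71 in the cultures and 10.01 and 8.95 in the heart libraries, and Meg3 had 6.17, 6.32 and 6.32 in the cultures and 5.36 and 5.71 in the heart libraries. On chromosome 16 the order was reversed. Mir99ahg, the host transcript next to the pair Mir99a and Mirlet7c-1, had 3.76, 3.87 and 4.003 in the cultures, 6.995 and 6.91 in the heart libraries and 3.60 in iPS cells. Mir99a had 4.11, 3.58 and 3.45 in the cultures and 5.78 and 6.13 in the heart libraries, and Mirlet7c-1 had 3.53, 2.63 and 3.31 in the cultures and 5.38 and 5.27 in the heart libraries, close to or below the median of all values throughout. Let-7 microRNAs accumulate as cells differentiate, and Lin28a blocks their maturation. Lin28a was higher in the cultures with 6.29, 6.37 and 6.37, against 5.05 and 4.94 in the heart libraries. A link between Lin28a and the values of Mirlet7c-1 was not tested.

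**Figure D5:**
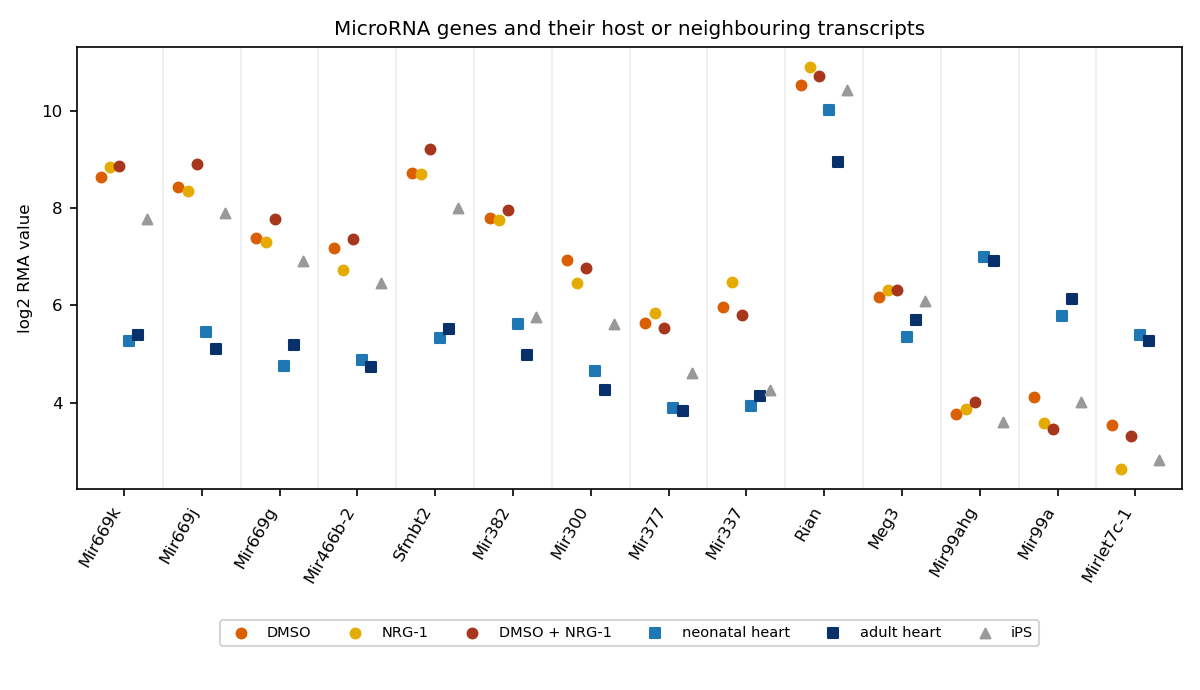
Log2 RMA values (vertical axis) of microRNA genes and their host or neighbouring transcripts in the 3 cultures (circles), the 2 heart libraries (squares) and iPS cells (triangles), comparable within a gene only. The cultures lie above the heart libraries for the Sfmbt2 and chromosome 12 genes and below them for the 3 chromosome 16 genes.

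The mature sequences of the counted genes at the last 2 of these places are shown with their seeds, so that microRNAs that could share targets can be told from those that could not. They are RefSeq's for GRCm38.p6, both arms where listed, with the seed (bases 2 to 8, which pairs with targets) in capitals. Those counted for the cultures come first and those for the heart libraries last.

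miR-382-5p: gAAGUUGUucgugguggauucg
miR-382-3p: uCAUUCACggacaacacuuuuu
miR-300-5p: uUGAAGAGagguuauccuuugu
miR-300-3p: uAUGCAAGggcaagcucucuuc
miR-377-5p: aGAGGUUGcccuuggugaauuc
miR-377-3p: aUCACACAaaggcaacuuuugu
miR-337-5p: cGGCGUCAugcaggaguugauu
miR-337-3p: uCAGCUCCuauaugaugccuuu
miR-3070-5p: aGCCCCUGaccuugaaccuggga
miR-3070-2-3p: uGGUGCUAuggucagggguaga
miR-99a-5p: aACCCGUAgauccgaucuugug
miR-99a-3p: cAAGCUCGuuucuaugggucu
let-7c-5p: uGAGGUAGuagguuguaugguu
let-7c-1-3p: cUGUACAAccuucuagcuuucc

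All 14 seeds differ from each other, so none of these microRNAs form a seed family among themselves. The seed of let-7c-5p is carried by 11 mature names of the table, mainly the other let-7 microRNAs and miR-98-5p. The seed of miR-99a-5p is shared with miR-99b-5p and miR-100-5p, and that of miR-99a-3p with miR-99b-3p. On the culture side, miR-377-5p shares its seed with miR-672-5p, and miR-3070-2-3p with miR-3070-3p. Of the 15 microRNA genes counted, 8 have a mature sequence in the table, and those inside Sfmbt2 are named only.

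A stricter rule by level gave the genes that were high on one side and low on the other. In all, 66 of 14099 genes (0.468%) were at or above the 75th percentile in every culture and below the median in both heart libraries, and 40 genes (0.284%) showed the reverse. The culture set held Afp, Apoa1, Fgb, Fgg, Spp2 and Cubn of the yolk sac list, Epcam, Ocln, Cldn7, Elf3, Esrp1 and Marveld2 of the junction list, Krt15, Krt23, Psca and Muc4. The heart set held Tcf21, Fap and Dpt of the fibroblast list, Col14a1, Aspn, Adamts5, Lama2, Itga1, Tbx18 and Zfpm2. Where these genes stood in iPS cells differed between the sets. Of the 66 culture genes 18 were at or above the 75th percentile in iPS cells, 25 were below the median and 23 lay between. Of the 40 heart genes 2 were at or above the 75th percentile in iPS cells, 28 were below the median and 10 lay between. Among all 656 genes higher in the cultures, 384 were at least 2-fold higher in every culture than in iPS cells and 29 at least 2-fold lower. Among the 666 genes higher in the heart libraries, the cultures lay at least 2-fold above iPS cells for 44 and at least 2-fold below for 128. For the other 494 the cultures had no such gap to the iPS library in one direction.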

How the data were processed

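Total RNA (300 ng per sample) was hybridised to Affymetrix Mouse Gene 2.0 ST arrays. The authors deposited 1 log2 value per probe set, made with RMA (background correction, quantile normalization and summarising of probes) per the submitters' processing notes; the software version is not given in the sources used here. Of 41345 probe sets 23521 had 1 gene symbol, 1814 several and 16010 none, and 1082 of 22180 genes with several probe sets were averaged. With 1 library per group nothing was tested: each gene was given by the difference of side means and by the smallest gap between any culture and any heart library, and counted at 2-fold. The script was tested on simulated tables. Genes named in the text were drawn from the 30 with the widest smallest gap each way, counted or defining members of the lists, and sex-linked genes. The lists were chosen with earlier results of these data known, and the families, microRNA places, motifs and a few further genes after their values were seen. Array files give no detection calls, so genes are called low, never absent, and having 5 arrays limits precision. Tools were Python 3.11.15, pandas 2.3.3, numpy 2.4.6 and R 4.3.3 with limma 3.58.1. Alternatives were the filter, the brightest probe set, cyclic loess (limma's normalizeCyclicLoess), a shift by 10 housekeeping genes, other thresholds and leaving out each library.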

Additional observations from a re-analysis of the deposited data

Results flagged for a closer look

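Signal was also present in probe sets that the comparison by gene does not use. Among the 16010 probe sets with no gene symbol, 7908 passed the filter, and 142 of them (1.8%) were at least 2-fold higher in every culture than in both heart libraries, against 95 (1.2%) in the other direction. Among the 1814 probe sets with several gene symbols, 1135 passed the filter, and 81 (7.14%) were higher in the cultures and 23 (2.03%) in the heart libraries. These probe sets were looked at because no gene count includes them, and their identity was not tested.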

How the results depend on the processing

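There were 2876 alternative values over 353 results (the counts, 42 list medians and 307 named genes). Of these, 94 moved past the limits used (1.5-fold, or 0.58 on the log2 scale for medians and genes) and 2782 did not. A turned sign was looked for in medians and genes with a main difference of at least 1 (log2), and 0 were found. For counted genes the counting rule itself prevents a turned sign when a library is left out, so this result says little for them. Among named genes, 34 moved without the adult library and 34 without the neonatal one. The median of the epicardial list, -0.68, was 0.06 without the neonatal library. Xist had a difference of 3.37 without the neonatal library and of -2.03 without the adult one (log2). Over members that passed the filter, the pluripotency median was 1.43 in place of 0.35 and the trophoblast median 0.88 in place of 0.295. With the brightest probe set 11 named genes moved, with differences for Cdh1 (6.07), Dsg2 (5.34), Bex4 (4.65), Foxq1 (4.004), Sall4 (2.83), Clca4a (2.19), Bgn (-5.33), Rrm2 (-2.77), Prelp (-2.57), Nfix (-2.09) and Col5a1 (-1.80). The counts of genes higher in the cultures and in the heart libraries, 656 and 666, were 663 and 667 with no filter, 553 and 611 with the filter at the 75th percentile, 668 and 692 with the brightest probe set, 631 and 685 after cyclic loess and 727 and 603 after the housekeeping shift. That shift put the all-gene median difference at 0.06. Requiring only a 2-fold difference of side means gave 1131 and 1236, and a 4-fold smallest gap gave 209 and 182. The level counts, 66 and 40, were 19 and 9 with the 67th and 33rd percentiles. Leaving out 1 library at a time gave 683 to 912 genes higher in the cultures, 701 to 1135 higher in the heart libraries (1135 without the adult library), and level counts of 68 to 109 for the cultures (109 without the neonatal library) and 41 to 72 for the heart libraries (72 without the neonatal and 68 without the adult library). Fewer libraries on a side make the smallest gap easier to meet. No paired analysis was possible because each group has 1 library, so no replicate numbers are shared. Normalization to equal distributions limits what can be said of a shift common to all genes, and genes near the floor of the arrays have compressed differences.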
